A study of Homo sapiens with 6 samples.

Results

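The mRNAs described here encode the nuclear-encoded subunits of the mitochondrial respiratory chain and of ATP synthase, measured on 3 single-colour Affymetrix arrays of K562 cells carrying a miR-543 vector and 3 of K562 cells carrying a control vector. The gene family was chosen with earlier results of these data known, and its members were taken by gene symbol. The symbols were NDUFA, NDUFB, NDUFC, NDUFS or NDUFV followed by a number, SDHA to SDHD, and UQCR followed by letters or digits. CYC1, COX4 to COX8 followed by letters, and every symbol that begins with ATP5 were also taken. This gave 78 genes of the 17687 distinct symbols on the array, each with 1 row, and no filter on low values was applied to them. They fall into 31 genes of complex I, 3 of complex II, 9 of complex III, 17 of complex IV and 18 of complex V. Some further subunits, among them NDUFA3, NDUFC2, SDHB, UQCRFS1, ATP5F1E and ATP5MK, were not analysed here.

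K562, an established human erythroleukaemia cell line with the BCR-ABL1 fusion gene, was the source of all 6 samples, and total RNA was used. The labels describe the miR-543 cells as overexpressing the microRNA and name no promoter, vector backbone, selection or time of harvest, and the origin of the replicates is not stated either. Each p-value therefore measures only the spread between these arrays, which may be technical. Values are log2 signals, and a change is the mean over miR-543 arrays minus the mean over control arrays on that scale. Since probes differ in brightness, a higher signal of one gene than of another is not read as more mRNA. The midpoint and upper quartile of the array only mark where a signal lies among all probe sets. The level of the microRNA itself was not analysed here. The microRNA that the vector carries is shown because it defines the comparison, as RefSeq gives it in GRCh38.p14 (chr14:101032033-101032054, plus strand), with the seed, bases 2 to 8, in capitals.
hsa-miR-543: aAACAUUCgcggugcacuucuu

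Complex I takes electrons from NADH and complex II takes them from succinate, both pass them through ubiquinone to complex III, and cytochrome c carries them on to complex IV, which reduces oxygen. Complexes I, III and IV pump protons across the inner membrane, and ATP synthase, complex V, uses the gradient to make ATP. Most subunits are encoded in the nucleus, and transcription factors such as NRF1, GABPA of the ETS family and YY1 are known to bind the promoters of many of these genes. Erythroid precursors use mitochondria for haem synthesis as well as for respiration.

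Promoters of 62 of the 78 genes had a RefSeq entry of 300 bases, from 250 before to 50 after the annotated start. An NRF1-type motif, the letters GCGCA, any base and then GCGC, was found on either strand in 15 of them (24.2%), against 6.28% of all 27305 promoters of that length and 14.5% of the 4000 promoters of genes in the upper quartile of signal on these arrays. An ETS-type motif, CCGGAAG, was found in 17 (27.4%), against 10.7% of all promoters and 24.5% of those of the upper quartile. A YY1-type motif, AANATGGC, was also found in 17 (27.4%), against 6.82% and 14.0%. At least 1 of these motifs lay in 37 promoters and none in 25. A match is a description of the letters and not of binding.

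The promoters of 4 genes are printed, in GRCh38.p14 and 5′ to 3′ on the strand of the gene, with matches to the 3 motifs in capitals. They belong to the genes with the smallest p in complexes I, III and IV, and NDUFA1 is added as the gene with the smallest p that holds a YY1-type match. The promoter of NDUFB2 (chr7:140696458-140696757, plus strand) held none of the 3 motifs, and that of UQCR11 (chr19:1605413-1605712, minus strand) held 2 NRF1-type and 2 ETS-type matches. COX5B (chr2:97645812-97646111, plus strand) held 2 ETS-type matches, and NDUFA1 (chrX:119871582-119871881, plus strand) held 1 ETS-type and 1 YY1-type match.
NDUFB2: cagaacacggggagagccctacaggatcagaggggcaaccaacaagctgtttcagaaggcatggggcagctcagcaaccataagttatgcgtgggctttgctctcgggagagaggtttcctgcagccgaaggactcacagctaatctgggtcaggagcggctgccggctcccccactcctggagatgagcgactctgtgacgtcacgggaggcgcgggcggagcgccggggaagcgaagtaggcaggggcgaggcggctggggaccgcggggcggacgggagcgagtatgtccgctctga
UQCR11: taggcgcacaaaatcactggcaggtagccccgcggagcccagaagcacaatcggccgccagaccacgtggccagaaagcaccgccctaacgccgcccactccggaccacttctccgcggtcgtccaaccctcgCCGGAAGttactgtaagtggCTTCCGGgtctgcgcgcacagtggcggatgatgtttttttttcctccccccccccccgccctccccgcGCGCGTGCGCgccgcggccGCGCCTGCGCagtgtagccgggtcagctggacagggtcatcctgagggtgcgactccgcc
COX5B: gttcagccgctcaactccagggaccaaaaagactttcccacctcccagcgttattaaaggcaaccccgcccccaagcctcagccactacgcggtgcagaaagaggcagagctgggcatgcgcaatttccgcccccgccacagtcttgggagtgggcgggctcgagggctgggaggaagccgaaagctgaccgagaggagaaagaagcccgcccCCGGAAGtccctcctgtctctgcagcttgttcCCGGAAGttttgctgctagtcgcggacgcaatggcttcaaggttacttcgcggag
NDUFA1: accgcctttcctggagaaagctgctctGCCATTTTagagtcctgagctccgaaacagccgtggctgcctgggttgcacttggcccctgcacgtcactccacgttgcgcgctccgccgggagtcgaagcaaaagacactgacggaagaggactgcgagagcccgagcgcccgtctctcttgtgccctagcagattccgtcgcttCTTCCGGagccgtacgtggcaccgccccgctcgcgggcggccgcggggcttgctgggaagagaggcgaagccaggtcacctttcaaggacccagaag

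The median log2 change was 0.13 for the members with an NRF1-type match and 0.13 for the 47 without, 0.20 with and 0.12 without an ETS-type match, and 0.14 with and 0.12 without a YY1-type match. For the general promoter motifs GGGCGG (SP1-type), CCAAT and TATAAA, held by 37, 22 and 7 members, the medians were 0.17, 0.12 and 0.08 with the motif and 0.09, 0.16 and 0.14 without it. Those motifs lay in 59.7%, 35.5% and 11.3% of the members' promoters, against 70.8%, 39.9% and 5.83% in the upper quartile and 44.6%, 35.7% and 12.0% of all promoters. The differences between these medians were not tested.

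None of the 78 subunits was called, at an adjusted p under 0.05 in limma over all 21448 probe sets, where 122 probe sets (0.569%) were called. Without the adjustment 9 of the 78 (11.5%) had a p under 0.05, against a background of 10.6%. All 9 were higher with the miR-543 vector, a direction in which the background was 5.4% of all probe sets, while 0 were lower, against 5.21%. The members lay mostly on the higher side: 63 of 78 (80.8%) had a log2 change above 0, against 52.3% of all probe sets, and their median was 0.13, against 0.01. Signals of 67 members lay in the upper quartile of the array, where 47.1% of probe sets had a change above 0 and the median was -0.01. Among those 67 members 56 lay above 0, with a median of 0.13. Of the 67, 8 were higher at an unadjusted p under 0.05, against 4.7% of probe sets in that quartile. The members were chosen with earlier results of these data known, so these shares are given without a test. In bulk RNA a change in the share of cells of a type and a change in RNA per cell cannot be told apart.

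The change rested unevenly on the control arrays. On control replicate 3 the members were near the miR-543 level: that array was the highest of the 3 controls for 58 of 78 members (74.4%), against 32.5% of all probe sets. The median of the miR-543 mean minus the single control array was 0.20 for control replicate 1 and 0.21 for control replicate 2, but -0.03 for control replicate 3. Against control replicate 3, 30 of 78 members (38.5%) were higher with miR-543, while 52.3% of all probe sets and 51.1% of the upper quartile were. Without control replicate 3 the median change was 0.21, 65 of 78 members lay above 0, and 17 had an unadjusted p under 0.05 with 0 called. In that fit 52.1% of all probe sets lay above 0 and 11.4% had an unadjusted p under 0.05. Without control replicate 2 only 2 of 78 members had such a p, against 9.58% of all probe sets. Without control replicate 1 it was 5 of 78, against 7.45%. With a miR-543 array left out it was 5 to 8 of 78, against 8.83% to 10.3%. The groups did not overlap, with all miR-543 arrays above all control arrays, for 7 members (8.97%), against 7.89% of all probe sets and 9.55% of those in the upper quartile. The reverse held for 2 members (2.56%), against 7.5% of all probe sets and 11.9% of those in the upper quartile. These 7 and 2 members all lay among the 67 in the upper quartile. The share of members with the miR-543 arrays higher was thus near the background, and the share with them lower was under it.

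**Figure D1:**
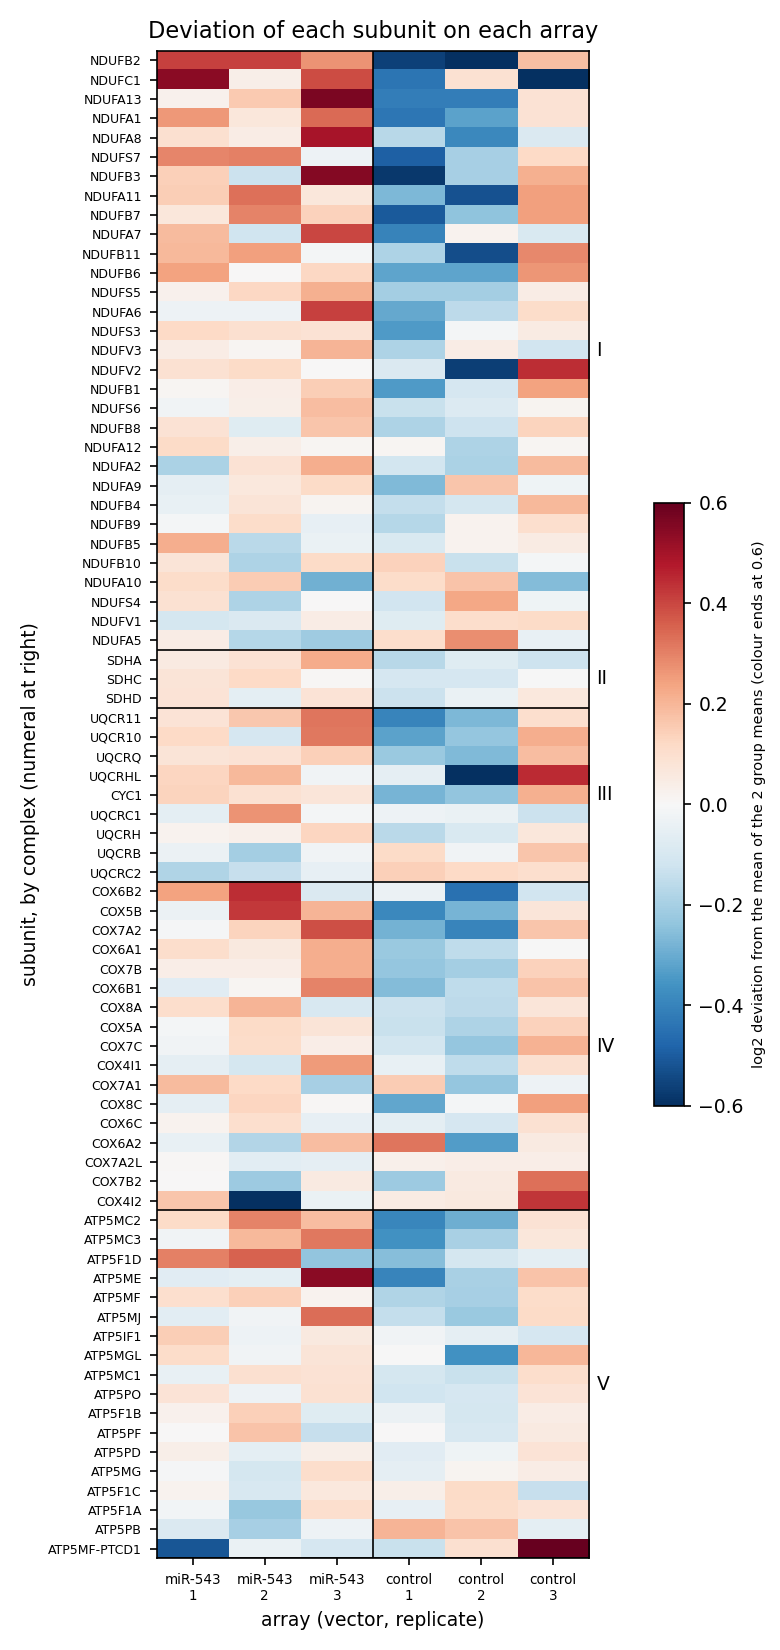
Each row is a subunit, grouped by complex and ordered by its change, each column is an array (miR-543 vector replicates 1 to 3, then control vector replicates 1 to 3), and colour is the log2 deviation from the mean of the 2 group means. Most rows are blue on control replicates 1 and 2 and pale to red on the 3 miR-543 arrays and on control replicate 3, which was the highest control for 58 of 78 subunits.

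The arrays had medians of 5.99 to 6.01, with upper quartiles of 9.61 to 9.66. The median deviation of the 78 members from the mean of the 2 group means was 0.045, 0.051 and 0.083 on miR-543 replicates 1, 2 and 3, and -0.143, -0.134 and 0.088 on control replicates 1, 2 and 3. Over all probe sets these medians lay between -0.012 and 0.012, and over those in the upper quartile between -0.025 and 0.023, so neither showed the offset of control replicate 3. Of the 12 erythroid markers listed for K562, 9 were measured, 7 of them in the upper quartile, and the others were not below the midpoint of the array. Their mean log2 signal was 12.19 to 12.30 on the miR-543 arrays and 11.89 to 12.09 on the control arrays, with control replicate 3 the highest control. The single markers were split over which control was highest. Control replicate 3 was the highest control for EPOR (5.84, 6.13 and 6.97 on the controls), GATA1, HBE1, NFE2 and HBZ. It was not for KLF1, TAL1, ALAS2 and TFRC. With miR-543 higher, the groups did not overlap for KLF1, TAL1, ALAS2 and NFE2, which had log2 changes of 0.66, 0.41, 0.40 and 0.34. Over all probe sets 7.89% had such a separation. The groups overlapped for HBZ, EPOR, HBE1, GATA1 and TFRC, with changes of 0.32, 0.14, 0.10, 0.01 and -0.08. No erythroid marker was called. The part of these markers in the result for the respiratory chain was not tested. Among markers of other cells, 0 of 6 fibroblast and 0 of 6 striated muscle genes lay in the upper quartile, while 4 of 7 epithelial and 2 of 6 lymphoid genes did, led by KRT8 and PTPRC. The means of those 4 lists were 5.09 to 5.19 against 4.68 to 5.04 for fibroblast, 4.82 to 4.97 against 4.97 to 5.15 for muscle, 10.09 to 10.15 against 10.03 to 10.14 for epithelial and 6.93 to 7.18 against 6.90 to 7.01 for lymphoid genes, on miR-543 and control arrays.

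**Figure D2:**
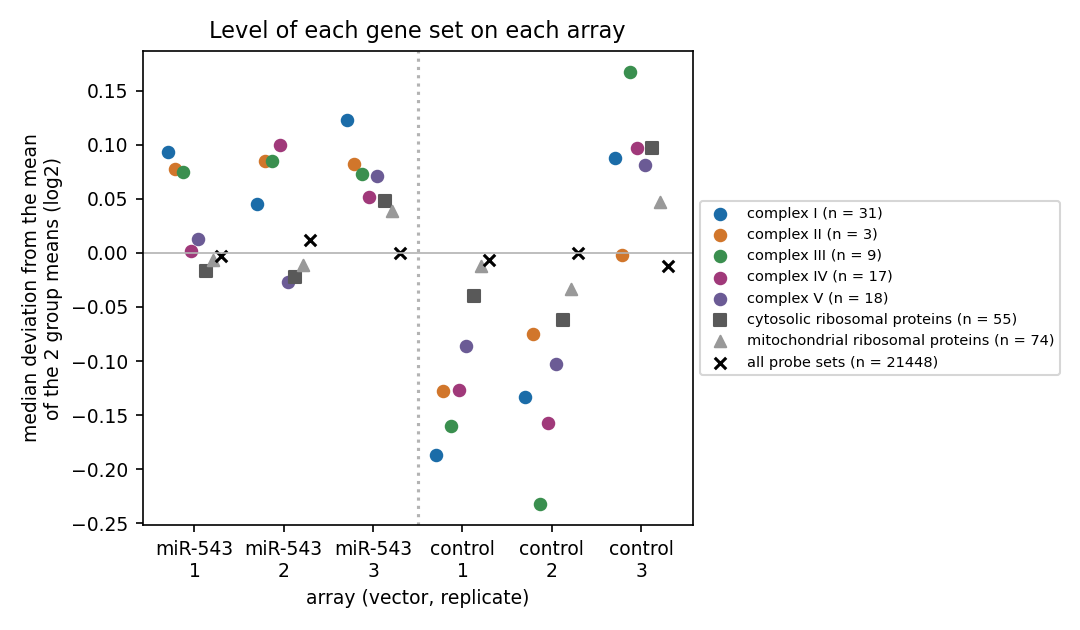
The vertical axis is the median deviation, in log2 units, of each gene set from the mean of the 2 group means, and the horizontal axis is the array. The complexes sit below 0 on control replicates 1 and 2, while on control replicate 3 complexes I, III, IV and V lie at 0.081 to 0.167, near or above the miR-543 arrays.

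Ribosomal protein genes shared the offset of control replicate 3 with a smaller group difference. That array was the highest control for 39 of 55 cytosolic (70.9%) and 42 of 74 mitochondrial ribosomal protein genes (56.8%). Replicate 3 was also most often the highest of the miR-543 arrays, where the share of all probe sets was 33.4%. This held for 33 of 55 cytosolic (60%) and 29 of 74 mitochondrial ribosomal protein genes (39.2%), and for 37 of 78 respiratory chain genes (47.4%). The 2 ribosomal sets had median log2 changes of 0.00 and 0.03, with 27 of 55 and 40 of 74 genes above 0. For the respiratory chain these were 0.13 and 63 of 78. Without control replicate 3 the medians of the ribosomal sets were 0.05 and 0.04, against 0.21 for the respiratory chain. These differences between gene sets were not tested.

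In complex I, the entry point of electrons from NADH, 27 of 31 subunits lay above 0, with a median log2 change of 0.17, a range of -0.23 to 0.72 and 0 calls, and the median was 0.29 without control replicate 3. The enzyme is L-shaped, with a peripheral arm that holds the redox centres and a membrane arm that pumps protons. Nuclear accessory subunits of the membrane arm had 17 of 18 members above 0 and a median of 0.27, and the 13 measured subunits of the peripheral arm had 10 above 0 and a median of 0.13. Without control replicate 3 these medians were 0.46 and 0.18. An unadjusted p under 0.05 was reached by 5 subunits, all among the 18 of the membrane arm, against 5.4% of all probe sets in that direction, and the difference between the arms was not tested.

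NDUFB2 (TC0700013468.hg.1, chromosome 7), an accessory subunit of the membrane arm, had log2 signals of 10.25, 10.25 and 10.11 on the miR-543 arrays, against 9.28, 9.14 and 10.02 on the control arrays. All miR-543 arrays lay above all control arrays, but by only a small margin over control replicate 3. The log2 change was 0.72 (SE 0.22, 95% interval 0.25 to 1.20), a 1.65-fold difference with a limma adjusted p of 0.263. It was 0.99 without control replicate 3, with an adjusted p of 0.0531, the lowest of any named member in any alternative. Its adjusted p was under that of every other subunit.

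NDUFC1 (TC0400012968.hg.1, chromosome 4), a small single-span subunit of the membrane arm, had signals of 10.69, 10.18 and 10.54 with miR-543, against 9.71, 10.24 and 9.52 with the control vector. Here control replicate 2 overlapped the miR-543 arrays and control replicate 3 was the lowest array, unlike for most members. The log2 change was 0.65 (SE 0.21, adjusted p = 0.302), or 1.57-fold.

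NDUFA1 (TC0X00008259.hg.1, chromosome X), a small membrane subunit needed for assembly of the complex, had signals of 12.19, 12.00 and 12.27 with miR-543, against 11.50, 11.61 and 12.02 in controls. Control replicate 3 fell among the miR-543 arrays, and the log2 change was 0.44 (SE 0.17, adjusted p = 0.399). NDUFA13 (TC1900011688.hg.1, chromosome 19), also known as GRIM-19, had 10.15, 10.28 and 10.69 with miR-543, against 9.71, 9.71 and 10.21 in controls. Its groups also overlapped through control replicate 3, with a log2 change of 0.50 (SE 0.19, adjusted p = 0.405). NDUFA8 (TC0900011428.hg.1, chromosome 9), a subunit with twin cysteine motifs on the intermembrane side, had 10.81, 10.76 and 11.21 with miR-543, against 10.55, 10.33 and 10.63 in controls. Its groups did not overlap, and the log2 change was 0.42 (SE 0.17, adjusted p = 0.407).

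Of the 4 core subunits of complex I measured, which carry the flavin or the iron-sulphur clusters or lie beside them, 3 lay above 0. NDUFS7, which holds the cluster next to the quinone site, had 8.52, 8.53 and 8.20 with miR-543, against 7.74, 8.03 and 8.35 in controls, a log2 change of 0.38 (adjusted p = 0.512) with overlapping groups. NDUFV1, which binds FMN and NADH, had 13.02, 13.04 and 13.17 with miR-543, against 13.05, 13.23 and 13.24 in controls, a log2 change of -0.10 (95% interval -0.40 to 0.21). NDUFS3 and NDUFV2 had log2 changes of 0.20 and 0.14, and for NDUFS3 all miR-543 arrays lay above all controls.

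The remaining subunits of complex I had log2 changes of -0.23 to 0.38 and adjusted p-values of 0.563 or more. In the membrane arm these were 0.38 for NDUFB3, 0.36 for NDUFA11, 0.33 for NDUFB7, 0.29 for NDUFB11, 0.25 for NDUFB6 and 0.24 for NDUFS5, with smaller values for NDUFB1, NDUFB8, NDUFB9, NDUFB4, NDUFB5 and NDUFB10. NDUFA10 was the only membrane arm member below 0, at -0.02. In the peripheral arm NDUFA7 and NDUFA6 had 0.31 and 0.24, NDUFV3, NDUFS6, NDUFA12, NDUFA9 and NDUFA2 had 0.08 to 0.17, and NDUFS4 and NDUFA5 had -0.06 and -0.23.

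**Figure D3:**
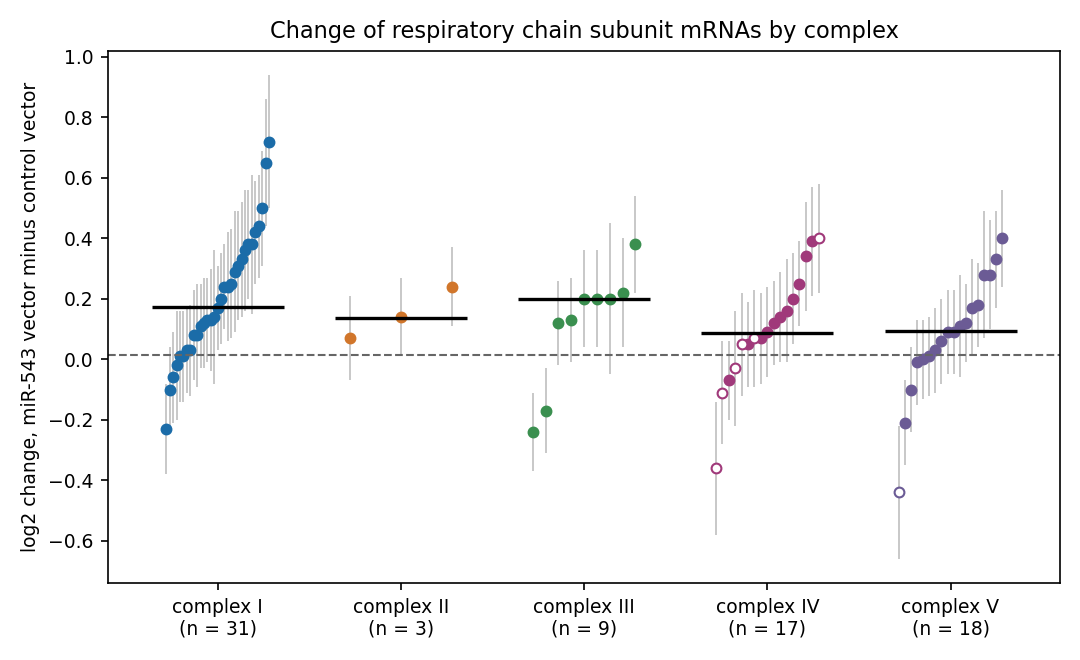
The vertical axis is the log2 change, miR-543 vector minus control vector, with the moderated SE as a bar, and each point is a subunit placed by complex. Open points are genes with a mean signal below the midpoint of the array, black lines are medians (0.17, 0.14, 0.20, 0.09 and 0.09 for complexes I to V) and the dashed line is the median of all probe sets, and no point was called.

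Complex II, succinate dehydrogenase, also works in the tricarboxylic acid cycle, and all of its 3 measured subunits lay above 0, with a median log2 change of 0.14 and 0 calls. SDHA, the flavoprotein that oxidises succinate, had signals of 11.77, 11.80 and 11.94 with miR-543, against 11.55, 11.64 and 11.59 in controls. Its groups did not overlap, and control replicate 3 lay within the other controls. The log2 change was 0.24 (SE 0.13, 95% interval -0.05 to 0.54, adjusted p = 0.568). The membrane anchors had smaller changes. SDHC had 12.04, 12.08 and 11.97 with miR-543, against 11.86, 11.86 and 11.96 in controls, a log2 change of 0.14 with the groups separated by 0.01 (adjusted p = 0.78). SDHD had 12.74, 12.60 and 12.74 with miR-543, against 12.53, 12.62 and 12.72 in controls, an overlap and a log2 change of 0.07.

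Complex III, the cytochrome bc1 complex, had 7 of 9 members above 0, with a median log2 change of 0.20 and 0 calls. The median was 0.35 without control replicate 3 and 0.12 without control replicate 1 or 2. UQCR11 (TC1900011837.hg.1, chromosome 19), its smallest subunit, had 13.44, 13.52 and 13.68 with miR-543, against 12.96, 13.09 and 13.46 in controls, and a log2 change of 0.38 (SE 0.16, adjusted p = 0.462). The overlap came from control replicate 3. Its promoter, printed above, holds both NRF1-type and ETS-type matches. CYC1, the cytochrome c1 that hands electrons to cytochrome c, had 12.93, 12.89 and 12.87 with miR-543, against 12.52, 12.56 and 13.01 in controls, a log2 change of 0.20 (adjusted p = 0.726). Here control replicate 3 was the highest of all 6 arrays.

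Among the small subunits, UQCRQ had 13.64, 13.65 and 13.71 with miR-543, against 13.34, 13.30 and 13.75 in controls, and UQCR10 had 11.61, 11.39 and 11.81, against 11.17, 11.26 and 11.71. Their log2 changes were 0.20 and 0.22, and only control replicates 1 and 2 lay below all miR-543 arrays. UQCRB, part of the quinone-binding region, had 14.24, 14.07 and 14.25 with miR-543, against 14.39, 14.25 and 14.44 in controls, a log2 change of -0.17 (adjusted p = 0.721) with control replicate 2 level with a miR-543 array.

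The large core proteins, which are related to mitochondrial processing peptidases, had changes of opposite sign. UQCRC2 had 15.61, 15.65 and 15.74 with miR-543, against 15.93, 15.91 and 15.89 in controls. The groups did not overlap, with the miR-543 arrays lower, and the log2 change was -0.24 (SE 0.13, 95% interval -0.53 to 0.05, adjusted p = 0.559). UQCRC1 had 12.07, 12.40 and 12.12 with miR-543, against 12.10, 12.09 and 12.00 in controls, a log2 change of 0.13 with overlap. UQCRH, the hinge protein, had a log2 change of 0.12, and UQCRHL, a near-identical copy whose probes may read the same mRNA, one of 0.20.

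Complex IV, cytochrome c oxidase, had 13 of 17 members above 0, with a median log2 change of 0.09, and 0 calls. The median was 0.21 without control replicate 3 and 0.06 without control replicate 2. COX5B (TC0200008554.hg.1, chromosome 2), a zinc-binding subunit on the matrix side, had 12.09, 12.55 and 12.33 with miR-543, against 11.74, 11.85 and 12.20 in controls. One miR-543 array lay below control replicate 3, and the log2 change was 0.39 (SE 0.18, adjusted p = 0.467). COX6A1, the general form of subunit VIa, had 14.82, 14.77 and 14.93 with miR-543, against 14.49, 14.56 and 14.71 in controls, with no overlap and a log2 change of 0.25 (adjusted p = 0.565).

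COX7A2, the general form of subunit VIIa, had 11.52, 11.66 and 11.91 with miR-543, against 11.24, 11.13 and 11.69 in controls, and a log2 change of 0.34 (adjusted p = 0.554). COX7B had 13.59, 13.59 and 13.77, against 13.32, 13.35 and 13.69, and a change of 0.20. In these genes control replicate 3 again lay among the miR-543 arrays. COX5A, which also lies on the matrix side, had 14.37, 14.50 and 14.46 with miR-543, against 14.25, 14.20 and 14.52 in controls (log2 change 0.12). COX4I1, the general form of the largest nuclear-encoded subunit, had 12.22, 12.17 and 12.53, against 12.23, 12.12 and 12.37 (log2 change 0.07, 95% interval -0.27 to 0.41). These groups overlapped. COX6B1, COX8A, COX7C and COX6C had changes of 0.05 to 0.16, and COX7A2L, a factor of respiratory supercomplexes, had a log2 change of -0.07 with every miR-543 array below every control.

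The 6 isoforms of complex IV that are known from particular tissues all lay below the midpoint of the array, and their 6 general partner isoforms all lay in the upper quartile. Median log2 changes were 0.01 for the tissue isoforms, 3 of 6 above 0, and 0.18 for the general isoforms, 6 of 6 above 0. COX4I2, a form of lung and of cells short of oxygen, had 5.18, 4.35 and 4.97 with miR-543, against 5.06, 5.07 and 5.44 in controls (log2 change -0.36, adjusted p = 0.615). COX6B2 (TC1900012051.hg.1, chromosome 19), a form of testis, had 4.39, 4.59 and 4.06, against 4.11, 3.70 and 4.03 (log2 change 0.40, adjusted p = 0.467). In both genes the groups overlapped.

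The muscle forms COX6A2 and COX7A1 had log2 changes of -0.03 and 0.07. COX6A2 had 5.43, 5.30 and 5.66 with miR-543, against 5.80, 5.14 and 5.53 in controls, and COX7A1 had 4.99, 4.92 and 4.60, against 4.95, 4.57 and 4.77. The remaining forms, COX7B2 and COX8C, had changes of -0.11 and 0.05. For COX7B2 the signals were 3.59, 3.37 and 3.64 with miR-543, against 3.37, 3.64 and 3.92 in controls, and for COX8C they were 4.47, 4.65 and 4.53, against 4.21, 4.51 and 4.77. In all 4 of these genes the groups overlapped. COXFA4, a complex IV subunit whose earlier symbol was NDUFA4 and which the symbol rule does not take, had 15.06, 15.09 and 15.18 with miR-543, against 14.83, 14.54 and 15.36 in controls (log2 change 0.20).

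**Figure D4:**
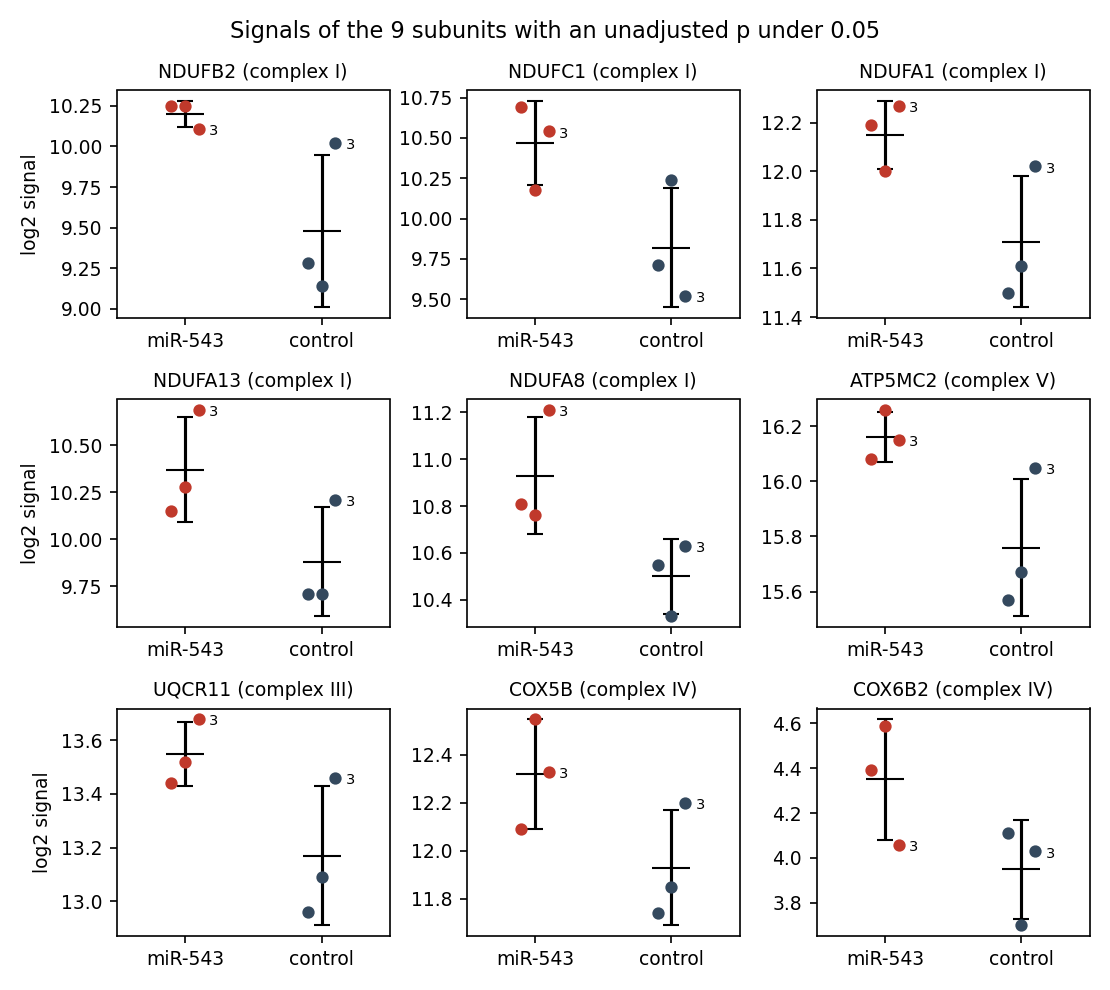
Each panel plots log2 signals of a subunit on the 3 miR-543 arrays (left, red) and the 3 control arrays (right, dark), with the mean and SD as a line and bar, on an axis that does not start at 0, and the array of replicate 3 is numbered. In 7 of the 9 panels control replicate 3 is the highest control and lies nearest to the miR-543 arrays, while NDUFC1 and COX6B2 differ.

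Complex V, ATP synthase, had 13 of 18 members above 0, with a median log2 change of 0.09 and 0 calls. The median was 0.05 without control replicate 2 and 0.13 without control replicate 3. Its largest positive changes lay in the c-ring, the rotor that protons turn, which 3 genes encode with the same mature protein. ATP5MC2 (TC1200012798.hg.1, chromosome 12) had 16.08, 16.26 and 16.15 with miR-543, against 15.57, 15.67 and 16.05 in controls, with no overlap and a log2 change of 0.40 (SE 0.16, 95% interval 0.04 to 0.76, adjusted p = 0.416). ATP5MC3 had 14.06, 14.28 and 14.40, against 13.72, 13.89 and 14.15, and a change of 0.33 with overlap (adjusted p = 0.524). ATP5MC1 had a log2 change of 0.09, so the c-ring genes ranged from 0.09 to 0.40.

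The catalytic F1 head had a median log2 change of 0.03 over 4 genes. ATP5F1B, the beta subunit that makes ATP, had 16.74, 16.86 and 16.64 with miR-543, against 16.68, 16.61 and 16.76 in controls (log2 change 0.06, 95% interval -0.24 to 0.37). ATP5F1A, the alpha subunit, had 12.48, 12.27 and 12.60, against 12.45, 12.61 and 12.58 (log2 change -0.10). ATP5F1D, of the central stalk, had 12.31, 12.36 and 11.77 with miR-543, against 11.75, 11.90 and 11.95 in controls, a change of 0.28, with miR-543 replicate 3 within the range of the controls. ATP5F1C had a change of -0.01.

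The peripheral stalk, which holds the head still, had a median of 0.02 over 4 genes. ATP5PB had 15.74, 15.63 and 15.80 with miR-543, against 16.03, 16.00 and 15.77 in controls, a log2 change of -0.21 (adjusted p = 0.664) with control replicate 3 again among the miR-543 arrays. ATP5PO, ATP5PF and ATP5PD had changes of 0.09, 0.03 and 0.01. Of the small membrane subunits, ATP5ME had 11.53, 11.54 and 12.14 with miR-543, against 11.20, 11.40 and 11.77 in controls (log2 change 0.28), and ATP5MF, ATP5MJ and ATP5MG had 0.18, 0.17 and 0.00. ATP5IF1, the protein that inhibits ATP hydrolysis by the enzyme and is known to be needed for haem synthesis in zebrafish and mouse red cells, had 14.54, 14.36 and 14.45, against 14.37, 14.34 and 14.29 (log2 change 0.12, adjusted p = 0.825).

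Some members match the symbol rule without being established subunits. ATP5MF-PTCD1, a readthrough transcript that overlaps ATP5MF and PTCD1, had 4.32, 4.79 and 4.73 with miR-543, against 4.70, 4.93 and 5.52 in controls, a log2 change of -0.44 (adjusted p = 0.529) at a signal below the midpoint of the array. ATP5MGL, a copy of ATP5MG, had a change of 0.11, and its probes may read ATP5MG. Over the 78 members the log2 change had a Spearman correlation of -0.21 with mean signal and -0.21 with the genomic span of the gene. Among the 67 members in the upper quartile these were -0.41 and -0.25. The points share the 6 arrays, and genes are not independent replicates.

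Genes that build and serve the respiratory chain were taken from 12 lists of 189 genes, of which 162 were measured in 11 lists, and none of the 162 was called, against the background of 0.569%. Without the adjustment 8 were higher and 7 lower at a p under 0.05, near the background of 5.4% and 5.21%. Together they had 84 above 0 and a median log2 change of 0.01, as had all probe sets, against 0.13 for the subunits themselves. No row was named for the 13 subunits encoded in mitochondrial DNA, so these were not analysed here. Assembly factors had medians of 0.03 for 19 genes of complex I, 0.01 for 11 of complexes II and III, -0.01 for 23 of complex IV and -0.01 for 6 of ATP synthase. SDHAF3, an assembly factor of complex II, had 11.14, 10.59 and 11.11 with miR-543, against 11.63, 11.85 and 11.66 in controls. Its groups were separate, and the log2 change was -0.77 (SE 0.18, adjusted p = 0.121), the lowest adjusted p of the 162 genes. COX10, which makes haem O for complex IV, had a log2 change of -0.43 (adjusted p = 0.307) with separate groups, and SDHAF4 and COX18 had 0.39 and 0.33.

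Of 15 genes of mitochondrial DNA transcription and replication 7 lay above 0 (median -0.08). TFAM, which packages mitochondrial DNA and starts its transcription, had 14.13, 14.13 and 13.98 with miR-543, against 14.41, 14.70 and 14.36 in controls, a log2 change of -0.41 with separate groups (adjusted p = 0.365). POLG2, the accessory subunit of the mitochondrial DNA polymerase, had a change of 0.36 (adjusted p = 0.407). Of 13 regulators of respiratory chain genes 9 lay above 0 (median 0.12), with -0.51 for the oxidative stress factor NFE2L2 (adjusted p = 0.35), 0.28 for GABPB2 and -0.21 for GABPA. The signal of the coactivator PPARGC1A lay below the midpoint of the array.

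In the tricarboxylic acid cycle 6 of 16 genes lay above 0 (median -0.02), with changes of both signs among its isocitrate dehydrogenase subunits. IDH3B had 12.36, 12.25 and 12.70 with miR-543, against 11.74, 12.02 and 11.83 in controls, a log2 change of 0.57 with separate groups (adjusted p = 0.234), IDH2 had 0.39 and IDH3A had -0.27. Coenzyme Q synthesis had 7 of 13 genes above 0 (median 0.06). COQ2, the prenyltransferase of that pathway, had 10.35, 10.09 and 10.16 with miR-543, against 9.50, 9.71 and 9.83 in controls, a log2 change of 0.52 (adjusted p = 0.245), and COQ5, COQ4 and COQ7 had 0.39, 0.38 and -0.27. Carriers and cytochrome c had 5 of 13 above 0 (median -0.03), with 0.42 for the citrate carrier SLC25A1 (adjusted p = 0.28) and -0.20 for the channel VDAC3. Protein import had 12 of 20 above 0 (median 0.10), with -0.42 for CHCHD4, -0.32 for TOMM70, 0.29 for TIMM17B and 0.28 for TIMM13, and inner membrane organisation had 6 of 13 above 0 (median -0.01). These lists had no common direction, and the difference between them and the subunits was not tested.

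**Figure D5:**
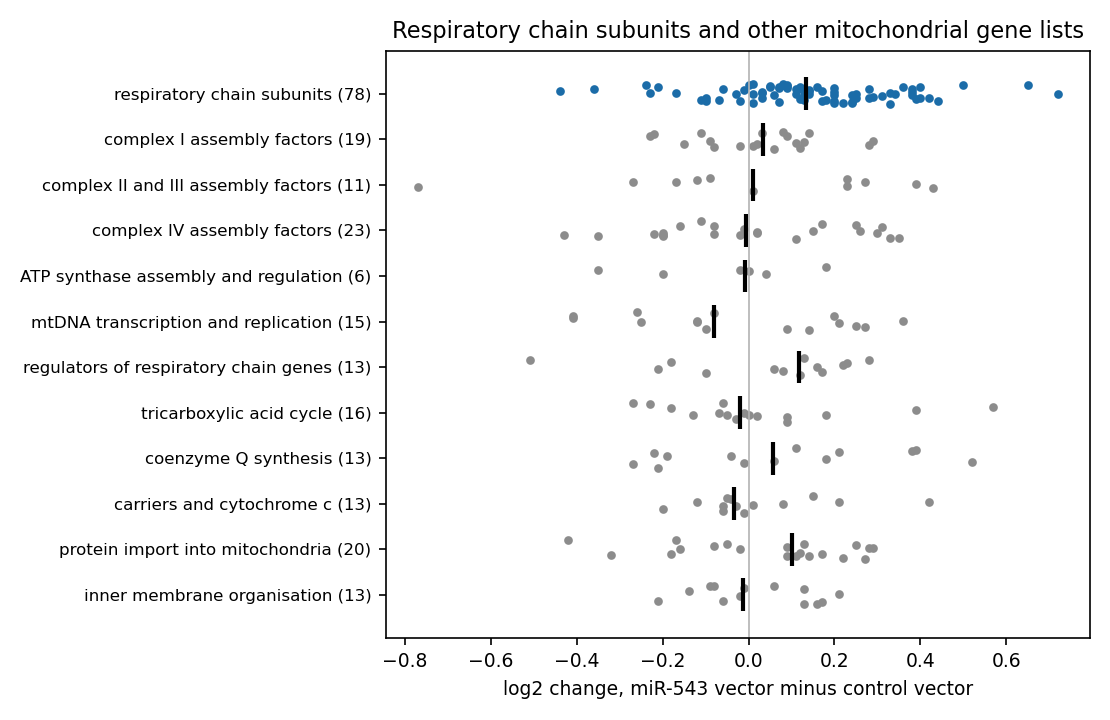
The horizontal axis is the log2 change, miR-543 vector minus control vector, each point is a gene (spread vertically at random for legibility) and each row is a gene list with its number of genes. Black lines are medians, which are 0.13 for the 78 respiratory chain subunits and -0.08 to 0.12 for the other lists, and no gene shown was called.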

How the data were processed

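The authors deposited one log2 signal for each probe set and array, for 6 single-colour arrays, 3 per group. Per the submitters' processing notes they were made with Transcriptome Analysis Console 4.0 and RMA, which corrects background, normalizes between arrays and summarises probes, with the genome build and further details not given in the sources used here. The table held 21448 probe sets, 17709 of them named by the platform annotation, and 0 columns of other samples. Sample titles gave the groups. Genes were not classed as detected or undetected, and the number of arrays limits the precision.

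All probe sets were fitted with limma 3.58.1 in R 4.3.3 (lmFit and eBayes without a trend, block or filter), with two-sided p-values and Benjamini-Hochberg adjustment across the whole table. SE is the moderated standard error, and intervals are 95% intervals. Members took the row with the highest mean per symbol, and 0 symbols had a further row. Signals on each array are given for called members, for up to 6 members per complex with the smallest p, and for fixed core subunits and isoforms, and up to 4 genes of each other list with the smallest p could be named. The members and lists were chosen with earlier results of these data known. A simulated data set of 21448 probe sets in 3 arrays against 3 had independent noise and 50 changed probe sets for each size of change. On it this comparison called 6% of probe sets changed by 0.5 on the log2 scale and 54% of those changed by 1. Offsets shared by many genes on an array, as on control replicate 3, were not simulated.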

Additional observations from a re-analysis of the deposited data

How the results depend on the processing

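No subunit was called in the 11 alternative fits, under the other readings of the symbol rule or against a log2 change of 0.5. In the main fit 9 had an unadjusted p under 0.05, and with an array left out 2 to 17 had one. The lowest adjusted p of a named subunit over those fits was 0.0531, for NDUFB2 without control vector replicate 3. The count of all called probe sets, 122, was 252 with trend and robust settings, 12 against a log2 change of 0.5 and 34 to 59 with an array left out. With the replicate number as a block it was 71, and the members' median stayed at 0.13 with 0 calls. The labels do not say whether the numbers pair the samples. Over all probe sets, same-numbered arrays had correlations of their deviations of 0.095, -0.053 and 0.018. There 1 of 3 miR-543 arrays was most like the control of its own number. Among the 78 members replicate 3 was most often highest in its group, for 58 in controls and 37 with miR-543. Pairing was not tested for the members alone. The median of all members was 0.10 to 0.21 with an array left out, and 57 to 65 of them lay above 0. Control vector replicate 3 moved it most, and complex I had medians of 0.13 to 0.29, complex II of 0.12 to 0.17, complex III of 0.12 to 0.35, complex IV of 0.06 to 0.21 and complex V of 0.05 to 0.13 over the arrays left out, and all but complex II were highest only without that array. The cause was not tested. Further normalization, equal medians, the filter at the 50th percentile, the wider symbol rule, which adds COXFA4, COXFA4L2 and NDUFV1-DT, and the subunits alone left the median at 0.13 to 0.15. NDUFA4 could not be moved out of complex I, since its row is named COXFA4, and adding it gave complex IV a median of 0.10. Signs were followed for the 38 members whose signals on each array are given above. Of 411 alternative fits of these 38 members 404 kept the sign. The others were changes that turned sign with an array left out: COX4I1 ranged from -0.04 to 0.14, COX6A2 from -0.20 to 0.13, COX7A1 from -0.02 to 0.19, COX7B2 from -0.25 to 0.03 and COX8C from -0.09 to 0.19. The turned values were -0.04 without miR-543 vector replicate 3 for COX4I1, 0.06 without miR-543 vector replicate 2 and 0.13 without control vector replicate 1 for COX6A2, 0.00 without miR-543 vector replicate 1 and -0.02 without control vector replicate 2 for COX7A1, 0.03 without control vector replicate 3 for COX7B2 and -0.09 without control vector replicate 1 for COX8C. Members outside these 38 also turned sign with an array left out. Among them were NDUFV2, from 0.14 to -0.11, and UQCRHL, from 0.20 to -0.10, both without control vector replicate 2. NDUFA10 went from -0.02 to 0.12 without miR-543 vector replicate 3. In the simulation with 3 arrays a group, changes of 0.5 were mostly not called.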
